A study of Mus musculus with 8 samples.

Results

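Fibroblast growth factors (FGFs) and their receptors were examined in the back skin of mouse embryos that have or lack the glucocorticoid receptor (GR), the hormone-activated transcription factor that Nr3c1 encodes. The family was taken as 10 genes: the ligands Fgf1, Fgf2, Fgf5, Fgf7, Fgf10, Fgf18 and Fgf22, and the receptors Fgfr1, Fgfr2 and Fgfr3. Every probe set, a group of short oligonucleotides on the array, annotated to one of these symbols alone was read. This gave 20 probe sets of 45037 tested and 10 genes of 18194, and the main value of a gene is that of its brightest probe set by the mean of all arrays. No member was removed by a filter on low values. The family was picked with the Fgf1 difference between the genotypes already known, so the differences of its members are given as a description.

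The series held 8 Affymetrix mouse expression arrays of B6D2/F1 embryos at embryonic day 18.5. Of these, 4 were GR+/+ (wild-type, label numbers 4, 6, 28 and 29) and 4 were GR-/- (GR-null, label numbers 5, 17, 25 and 26). The embryos were littermates delivered by caesarean section, all samples were dorsal skin, and the labels name no treatment and do not describe the null allele. Nor do they say whether separate embryos supplied the arrays, so SEs and p-values measure only the spread between these samples.

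FGFs are secreted proteins that bind receptor tyrosine kinases together with heparan sulfate on the cell surface. The receptors then signal through the adaptor FRS2 to the RAS-MAPK cascade, which Sprouty and Spred proteins restrain. In skin, ligands made in the dermis such as Fgf7 and Fgf10 act on the epidermal splice form of Fgfr2, and Fgf5 ends the growth phase of the hair cycle.

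The labels were checked first. At the 3 brightest of its 6 probe sets, all GR-null readings of Nr3c1 were below all wild-type readings, with log2 differences (GR-null minus wild-type) of -0.84 ± 0.11, -1.86 ± 0.12 and -2.70 ± 0.21 (SE, n = 4 per group). At the other 3, of lower level, the groups overlapped and the differences were 0.27 ± 0.37, 0.04 ± 0.11 and 0.35 ± 0.14. Correlations across probe sets lay between 0.987 and 0.993 within wild-type and between 0.978 and 0.994 within GR-null arrays. The skin markers were present, with mean log2 levels of 13.15 to 13.40 over 8 dermal fibroblast genes and 11.03 to 11.61 over 6 basal keratinocyte genes. The mean of 18 skeletal muscle genes was 11.75 to 11.89 in wild-type arrays, 11.87 in GR-null 17 and 10.88 to 11.19 in the other GR-null arrays. The mean of 5 melanocyte genes was 7.86 to 8.27 in wild-type and 8.63 to 9.29 in GR-null arrays. In such bulk samples, fewer cells of a type and less RNA per cell cannot be told apart.

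Fgf1, a ligand that binds all FGF receptors and lacks a signal peptide for secretion, was higher in GR-null skin at all 3 of its probe sets. The brightest gave readings of 5.64, 5.64, 5.67 and 5.23 log2 in wild-type arrays 4, 6, 28 and 29, and 7.80, 6.44, 8.10 and 7.68 in GR-null arrays 5, 17, 25 and 26. Every GR-null array lay above every wild-type array, and GR-null 17 was the lowest of the GR-null arrays by more than 1 log2. The means were 5.54 ± 0.21 and 7.50 ± 0.73 (SD, n = 4), a difference of 1.96 ± 0.31 log2 (SE), or 3.89-fold, with a 95% interval of 1.25 to 2.67.

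The other probe sets of Fgf1 gave smaller differences of the same sign. The second read 5.73, 5.33, 5.72 and 5.29 in the wild-type arrays and 6.24, 5.99, 6.23 and 6.81 in the GR-null arrays, in the same order. The third read 5.16, 4.75, 5.38 and 5.56, then 5.84, 5.88, 6.20 and 6.17. Neither overlapped between the genotypes, and the differences were 0.80 ± 0.18 and 0.81 ± 0.17 log2. The annotation gives the same source transcript for the first and second probe sets, so these are not independent targets. The wild-type means of all 3 lay between 5.21 and 5.54, below the array medians of 6.46 to 6.52, a range in which the authors' normalization (RMA) compresses differences.

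The mean of the muscle list was lower in GR-null 5, 25 and 26 than in the other arrays, and these had the highest Fgf1 readings at the brightest probe set. These arrays were also the highest at the second probe set. At the third they were not, as GR-null 17 (5.88) lay above GR-null 5 (5.84), the array with the lowest muscle mean. Of the 18 muscle genes, limma called 3 lower and 0 higher and left 15 not past the threshold, with 10 lower and 0 higher before adjustment. Over all genes, 1.56% were called lower, and 11.1% were lower before adjustment. GR-null 17 had the lowest Fgf1 reading of its group at the brightest probe set and a muscle list mean within the wild-type range, as the plot of Fgf1 and muscle levels by array shows. Without GR-null 17 the Fgf1 difference was 2.31 log2, and with the muscle list mean as a covariate it was 1.09. The muscle mean follows the genotype in all arrays but GR-null 17, so this covariate cannot separate muscle content from genotype. With the level of Eif2s3y, a Y-linked gene, as a covariate the Fgf1 difference was 2.00. The melanocyte list was also higher in every GR-null array, and its part in the result was not tested. Muscle was not the only list in which GR-null 17 stood apart. Its suprabasal keratinocyte mean was the lowest of all arrays, at 13.40 log2 against 13.68 to 13.97 in the others. Its hair follicle epithelium mean was the highest, at 9.66 against 8.76 to 9.18. The part of these lists was not tested either.

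**Figure D1:**
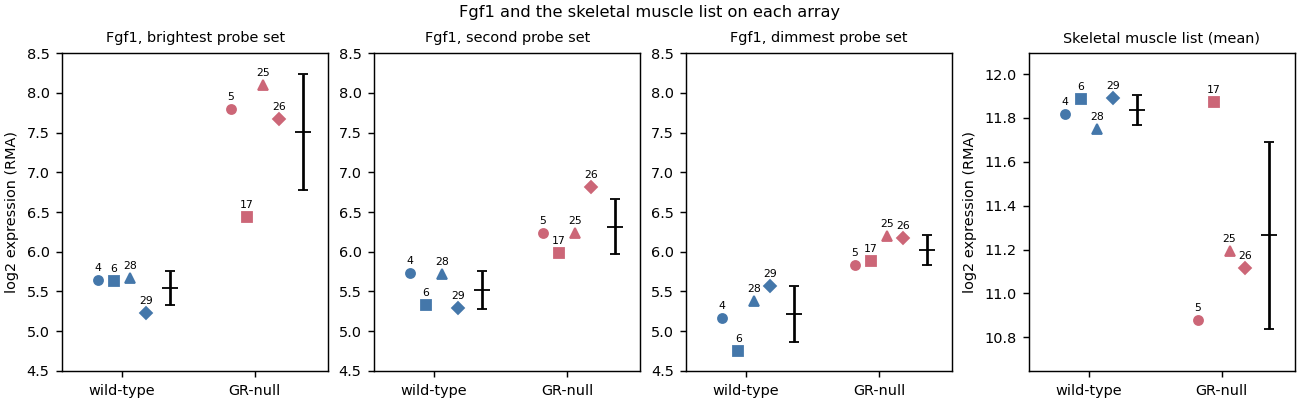
Log2 expression (RMA) of the 3 Fgf1 probe sets and the mean of 18 skeletal muscle genes on each array, numbered by label, with the group mean and SD as a black bar (n = 4 per group). At the brightest probe set the GR-null arrays sit between 6.44 and 8.10 and the wild-type arrays between 5.23 and 5.67, while the muscle mean of GR-null 17 (11.87) lies with the wild-type arrays.

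Fgf1 was picked for its difference between the genotypes. Its adjusted p was 0.0183 by limma with Benjamini-Hochberg adjustment over all genes, and this value supports nothing further here. That adjusted p was above 0.05 without wild-type 28 (0.0552), wild-type 29 (0.0649), GR-null 5 (0.0582), GR-null 25 (0.0648) or GR-null 26 (0.0592), with differences of 1.76 to 2.00 log2. It was 0.153 with the muscle covariate.

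In the annotation's gene order (RefSeq, GRCm38.p6), Fgf1 lies on chromosome 18, the chromosome of Nr3c1. Only 4 annotated genes start between them, none of them measured here by a probe set of its own, so Fgf1 and Nr3c1 are neighbours among the measured genes. The labels give neither the DNA that flanks the null allele nor the litter of each embryo, so the loss of GR and a difference in the sequence beside Nr3c1 cannot be told apart at Fgf1. The annotated span of Fgf1 falls inside that of Arhgap26, and whether probe sets of one gene take up transcripts of the other was not tested. Arhgap26 read 5.92, 5.87, 5.53 and 6.31 log2 in wild-type arrays 4, 6, 28 and 29 at its brightest probe set, and 5.42, 5.31, 5.15 and 5.18 in GR-null arrays 5, 17, 25 and 26. It was thus lower in every GR-null array, opposite in sign to Fgf1, with a difference of -0.64 ± 0.15 and adjusted p = 0.0589 by limma over all genes. Of its 3 dimmer probe sets, 1 also separated the groups, at -0.81 ± 0.18 with adjusted p = 0.0466 by limma over all probe sets, and the others had differences of -0.19 ± 0.12 and -0.02 ± 0.09 with overlapping groups.

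The next measured genes on either side of the pair differed less. Of the 10 measured genes beyond Fgf1 and the 10 beyond Nr3c1, limma called 0 at their brightest probe sets, and before adjustment 0 were higher and 4 lower at p below 0.05 (20% of the 20, against 21.6% of all genes, 10.5% higher and 11.1% lower). The background share of called genes was 2.96% of 18194, made up of 255 higher (1.4%) and 284 lower (1.56%). The groups did not overlap in 3 of the 20 neighbours (15%), against 13% of all genes. Array weights called 3 of the 20, and 10.7% of all genes. Spry4, a Sprouty feedback inhibitor of FGF signalling that lies just beyond Arhgap26 among the measured genes, had a log2 difference of -0.16 ± 0.10 with adjusted p = 0.383 by limma. The median difference of the 20 neighbours was -0.04 log2, against -0.0045 over all genes.

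**Figure D2:**
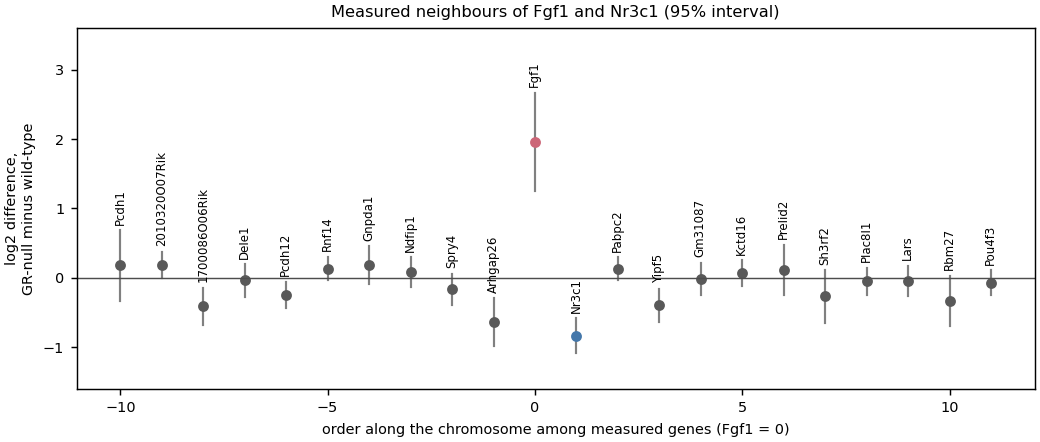
Log2 difference (GR-null minus wild-type, 4 arrays each) with 95% intervals for Fgf1 (red), Nr3c1 (blue) and the 10 measured genes on either outer side, in chromosome order with equal spacing. Fgf1 stands at 1.96 and Nr3c1 at -0.84, and the sizes of the other 20 differences do not exceed 0.64.

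Among the ligands secreted by the dermis for the epidermis, Fgf7 (keratinocyte growth factor) gave unlike readings at its 2 probe sets. The brighter gave readings of 7.57, 7.18, 7.49 and 8.12 log2 in wild-type arrays 4, 6, 28 and 29, and 7.66, 8.29, 7.60 and 7.17 in GR-null arrays 5, 17, 25 and 26. The groups overlapped throughout, with a difference of 0.09 ± 0.25 log2 and a 95% interval of -0.48 to 0.66. The dimmer read 6.91, 6.74, 6.74 and 7.31, then 7.71, 7.50, 7.60 and 7.15. There 3 of the 4 GR-null arrays lay above every wild-type array, and the difference was 0.57 ± 0.16.

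Fgf10, which in skin signals through the same Fgfr2 splice form, read 5.53, 5.47, 5.54 and 5.67 log2 in the wild-type arrays and 5.56, 5.59, 5.79 and 5.75 in the GR-null arrays. The ranges overlapped and the difference was 0.12 ± 0.08 (95% interval -0.07 to 0.31). Fgf22, a relative of Fgf7 and Fgf10, read 7.73, 8.04, 8.20 and 7.66 in the wild-type group and 7.40, 7.03, 7.51 and 7.88 in the GR-null group. All but GR-null 26 lay below every wild-type array, with a difference of -0.45 ± 0.19 and, at the dimmer probe set, -0.20 ± 0.16.

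Fgf18, a ligand made in hair follicles, was uneven among the wild-type arrays. It read 5.84, 5.34, 5.79 and 6.48 log2 in wild-type arrays 4, 6, 28 and 29 and 5.76, 5.10, 5.00 and 5.14 in GR-null arrays 5, 17, 25 and 26. Of the GR-null arrays, 17, 25 and 26 lay below every wild-type array and GR-null 5 lay within their range. The difference was -0.61 ± 0.24, with a 95% interval of -1.16 to -0.06.

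Fgf2 and Fgf5 were read near the bottom of the scale. Fgf2, a ligand without a signal peptide like Fgf1, read 3.78, 3.75, 3.68 and 3.44 log2 in the wild-type group and 3.78, 3.80, 4.14 and 3.85 in GR-null arrays. The groups were apart by 0.001 log2 between wild-type 4 and GR-null 5, so that this separation is far below the SD of either group (0.16 and 0.17). Its difference was 0.23 ± 0.11. Fgf5 read 4.31, 4.13, 4.12 and 4.24, then 4.46, 3.97, 4.39 and 4.37, with GR-null 17 the lowest of all arrays, and its 2 probe sets had differences of 0.10 ± 0.11 and -0.02 ± 0.10. The means of these probe sets lay below the 16th percentile of all probe sets, so small differences there would be hard to see.

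Of the receptors, Fgfr1, the main FGF receptor of mesenchymal cells, was lower in GR-null skin at its brightest probe set. The readings there were 10.56, 10.75, 10.50 and 10.80 log2 in wild-type arrays 4, 6, 28 and 29, and 10.29, 10.30, 10.11 and 10.19 in GR-null arrays 5, 17, 25 and 26. The groups did not overlap, and the difference was -0.42 ± 0.09, a 1.34-fold lower level with a 95% interval of -0.63 to -0.22. The second probe set pointed the other way at 0.24 ± 0.14, reading 9.55, 9.99, 9.36 and 9.59 in the wild-type group and 9.94, 9.67, 9.84 and 10.02 in the GR-null group. The third gave -0.14 ± 0.09, and both of these overlapped between the groups. The sign at Fgfr1 thus holds for the brightest probe set, whose name ends in _s_at and which may take up related transcripts. Without such probe sets the gene was read at the second, at 0.24.

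Fgfr2, whose epidermal splice form receives Fgf7, Fgf10 and Fgf22, was higher in GR-null skin at 2 of its 3 probe sets. At the brightest, also an _s_at set, it read 11.19, 10.81, 11.00 and 11.02 log2 in the wild-type group and 11.37, 11.54, 11.50 and 11.36 in GR-null arrays. Every GR-null array was above every wild-type array, with a difference of 0.44 ± 0.10 (1.35-fold, 95% interval 0.22 to 0.65). The second read 8.14, 9.23, 7.81 and 7.99, then 9.38, 9.09, 9.97 and 10.15. Its difference was larger, at 1.36 ± 0.33 (2.56-fold), with wild-type 6 standing above the other wild-type arrays and above GR-null 17. The third was level at -0.01 ± 0.19. Which splice form each probe set reads was not given in the sources used here.

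Fgfr3, a receptor of epidermis and cartilage, read 9.50, 9.56, 9.72 and 9.45 log2 in the wild-type group and 9.43, 9.76, 9.66 and 9.70 in GR-null arrays at its brighter probe set, a difference of 0.08 ± 0.10. The dimmer read 6.39, 6.25, 6.15 and 5.68, then 6.95, 6.36, 7.53 and 7.19, a difference of 0.89 ± 0.24. At that probe set GR-null 5, 25 and 26 lay above every wild-type array, and GR-null 17 lay just below wild-type 4.

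**Figure D3:**
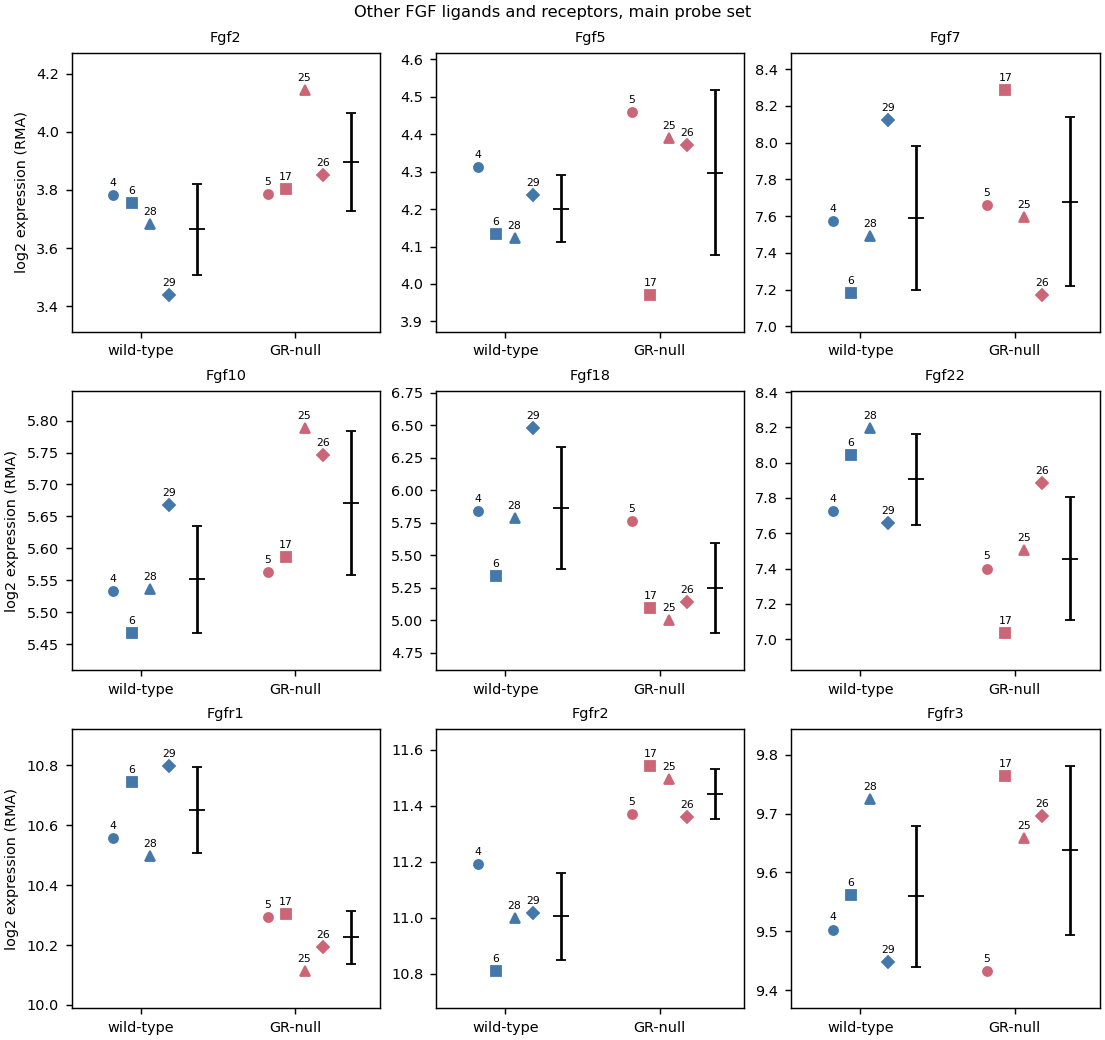
Log2 expression (RMA) at the main probe set of the 9 family members other than Fgf1, each array numbered by label, with the group mean and SD as a black bar (n = 4 per group). The groups are apart for Fgfr1 (10.11 to 10.30 in GR-null, 10.50 to 10.80 in wild-type), for Fgfr2 (11.36 to 11.54 and 10.81 to 11.19) and by a hair for Fgf2, and they overlap in the other panels.

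The window of 250 bases before the RefSeq start of Fgfr2 is shown because it was the one member with an upstream window in the table whose main probe set separated the groups by more than their SD. It lies on the minus strand of GRCm38.p6 at chr7:130266809-130267058, with CpG pairs in capitals.
Fgfr2: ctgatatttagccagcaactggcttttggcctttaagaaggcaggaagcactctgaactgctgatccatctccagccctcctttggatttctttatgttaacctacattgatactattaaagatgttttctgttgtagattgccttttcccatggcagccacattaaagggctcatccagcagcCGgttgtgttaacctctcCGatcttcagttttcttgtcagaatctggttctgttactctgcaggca
It holds 2 CpG pairs and 44.0% G and C, against medians of 6 and 52.4% over all 32851 windows of this length in the table, and against 37 pairs and 77.2% in the window of Fgf18. A window was given for 8 of the 10 members, 9 windows in all, and not for Fgf1 or Fgfr1. The hexamer of the glucocorticoid response element, AGAACA on either strand, was found in 0 of the 9 windows, and 16.1% of all windows hold it. This says only that these letters are not in these windows.

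Over the family, 3 of 10 genes were past the threshold of 0.05 in the fit over all genes, Fgf1 and Fgfr2 higher and Fgfr1 lower, beside a background of 2.96% of genes. Because the family was picked on this contrast, nothing is read from that share. The members just inside the threshold were Fgfr1 (adjusted p = 0.0457 by limma) and Fgfr2 (0.0468), and the next outside it was Fgf18 (0.192). The groups did not overlap at the main probe set in 4 members, against 13% of all genes. Of the 20 probe sets, 5 were past the threshold, against 3.85% of all probe sets, and 6 did not overlap, against 12.6%. The median log2 difference of the 10 genes was 0.09, against -0.0045 over all genes.

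The Fgfr1 and Fgfr2 calls were close to the threshold. Fgfr1 lost it without any 1 array other than GR-null 17, and Fgfr2 without any 1 other than wild-type 4 or GR-null 17, with adjusted p up to 0.144 and 0.145. Over all 17 alternatives each lost its call in 11. Beyond single arrays, Fgfr1 lost it with the intensity trend (0.0517), the mean of its probe sets (0.533), the muscle covariate (0.355) and no _s_at sets (0.35). Fgfr2 lost it with quantile normalization (0.0579), median centring (0.0550), the Eif2s3y covariate (0.0539), the muscle covariate (0.202) and no _s_at sets (0.0637). The Fgfr2 difference was 0.52 log2 with the muscle covariate and 1.36 without _s_at sets, where its second probe set was read. With the mean of its probe sets Fgfr2 kept the call, at 0.60 log2 (adjusted p = 0.0126 by limma). With 1 array left out the difference was -0.48 to -0.38 log2 for Fgfr1 and 0.37 to 0.50 for Fgfr2.

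**Figure D4:**
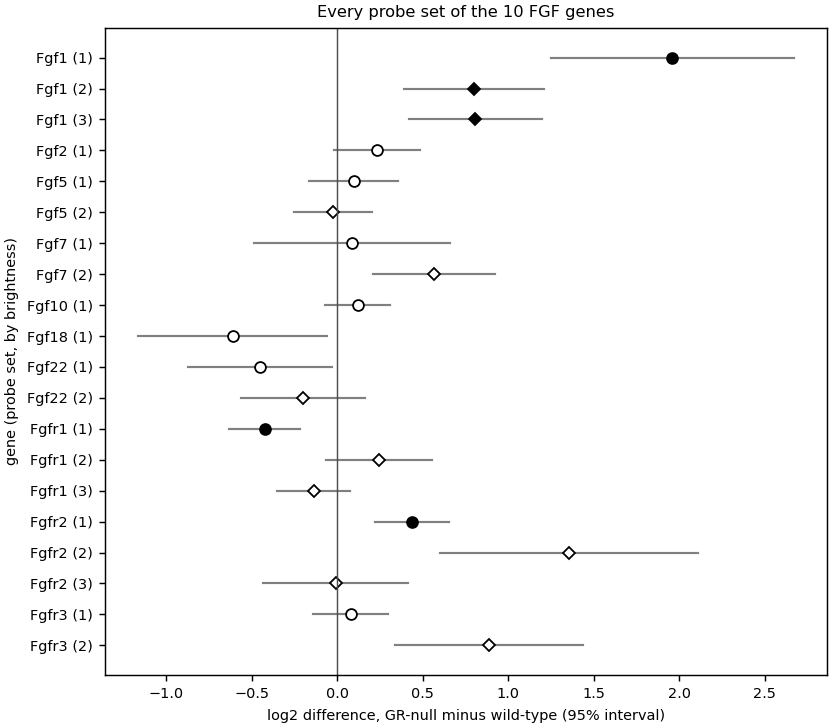
Log2 difference (GR-null minus wild-type, 4 arrays each) with its 95% interval for all 20 probe sets of the family, numbered by brightness within each gene. Circles mark the main probe set and diamonds the others, and filled symbols (3 of Fgf1, 1 of Fgfr1, 1 of Fgfr2) were past the adjusted threshold over all probe sets.

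The other genes of the pathway came from 6 lists with 94 genes, of which 85 had a probe set of their own. In GR-null skin 2 rose and 1 fell, while 82 did not pass the threshold, which is 3.53% called beside a background of 2.96%. Before adjustment, 13 were higher and 12 lower at p below 0.05, together 29.4%, against 21.6% of all genes. The groups did not overlap in 13 of the 85 (15.3%), against 13% of all genes, and the median difference was 0.02 log2. The share called was near the background and shows nothing about the pathway as a whole.

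Among the enzymes that build and edit heparan sulfate, the co-receptor of FGFs, 1 of 13 rose and 0 fell, with 5 higher and 1 lower before adjustment. The riser was Ndst3, an N-deacetylase and N-sulfotransferase. It read 4.74, 4.44, 4.77 and 4.40 log2 in wild-type arrays 4, 6, 28 and 29, and 5.25, 5.63, 6.13 and 5.80 in GR-null arrays 5, 17, 25 and 26. No array of one genotype reached the range of the other. Ndst3 rose by 1.12 ± 0.18 (2.17-fold, adjusted p = 0.0183 by limma), from a dim level, and its other probe set was not past the threshold. The median difference of the list was 0.14 log2. The call was lost on leaving out wild-type 29, GR-null 25 or GR-null 26 in turn, with adjusted p of 0.0637, 0.052 and 0.0579.

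Of 17 measured feedback inhibitors and transcriptional targets of the pathway, 1 rose and 1 fell, and both were Spred genes, whose products inhibit the RAS-MAPK cascade. Spred2 read 9.36, 9.24, 9.28 and 9.37 log2 in the wild-type group and 9.53, 9.74, 9.72 and 9.75 in GR-null arrays. It rose by 0.37 ± 0.08 (adjusted p = 0.0408 by limma), and none of its 4 other probe sets was past the threshold in that direction. With the mean of all its probe sets, the Spred2 difference was 0.09 with adjusted p = 0.553. Spred3 read 6.29, 6.21, 6.38 and 6.27 in the wild-type group and 5.98, 5.86, 5.65 and 5.63 in the GR-null group, and fell by 0.51 ± 0.10 (adjusted p = 0.0314). The arrays of both genes separated by genotype, in opposite directions.

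Both Spred calls were weak to the removal of arrays. Spred2 kept its call only without GR-null 17, and Spred3 without GR-null 5 or GR-null 17. The targets most used to read FGF activity, Dusp6 and Etv5, chosen here after their values were seen, had log2 differences of -0.04 ± 0.14 and 0.06 ± 0.14. Dusp5, also chosen so, was lower in every GR-null array, at -0.92 ± 0.22 with adjusted p = 0.0624 by limma. Spry1, a Sprouty gene also chosen so, was higher in every GR-null array, at 0.34 ± 0.09 with adjusted p = 0.0683 by limma. Before adjustment, 2 genes of the list were higher and 3 lower at p below 0.05. The median of the list was -0.02 log2.

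In the remaining lists limma called 0 genes. Of 15 other FGF ligands, 1 was higher and 1 lower at p below 0.05 before adjustment, and the smallest p was that of Fgf6, a ligand of developing muscle, at -0.37 ± 0.15 log2 (adjusted p = 0.182). Of 17 other receptors, co-receptors and binding proteins, 2 were higher and 4 lower unadjusted. Sdc1, a heparan sulfate proteoglycan of epidermal cells, read 10.73 to 11.14 in wild-type and 11.18 to 11.79 in GR-null arrays, a difference of 0.58 ± 0.15 (adjusted p = 0.0663).

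Of 16 measured genes that relay the signal inside the cell, 2 were higher and 2 lower unadjusted, and Map2k2, a MAP kinase kinase, had a difference of -0.52 ± 0.13 (adjusted p = 0.0714). Of 7 genes for the export and intracellular partners of FGF1, 1 was higher and 1 lower unadjusted. Fibp, which encodes an intracellular binding protein of FGF1, read 8.07 to 8.31 in wild-type and 8.46 to 8.63 in GR-null arrays, a difference of 0.33 ± 0.08 (adjusted p = 0.0607). The medians of these 4 lists lay between -0.03 and 0.07 log2.

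**Figure D5:**
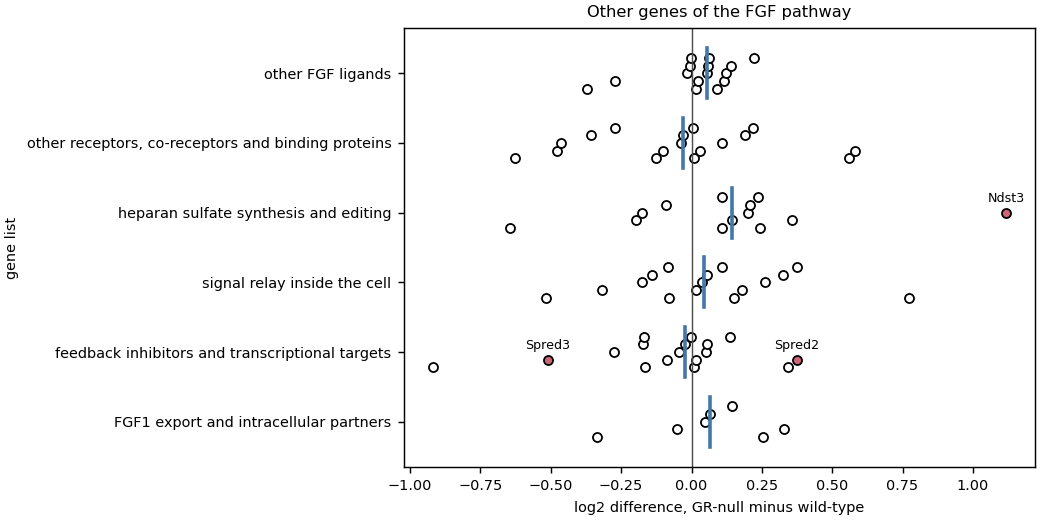
Log2 difference (GR-null minus wild-type, 4 arrays each) of the 85 measured pathway genes outside the family, one circle a gene, by list, with the list median as a blue bar. Filled circles were past the adjusted threshold over all genes: Ndst3 at 1.12, Spred2 at 0.37 and Spred3 at -0.51.

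The genes whose array pattern was most like that of Fgf1 over the 8 arrays were Commd8, Gnai3, Rab18, Tmem177 and Eif3m. Their Pearson r with Fgf1 was between 0.980 and 0.988 over all arrays, a value that includes the difference between the genotypes. After the mean of each genotype was subtracted it was between 0.888 and 0.964, and without GR-null 17 between 0.521 and 0.770. These 5 were the highest of 15777 genes once clone-type symbols and genes of the sex chromosomes were passed over, 2 of which ranked above the last of the 5, so such values are a description and carry no p. All 5 were higher in every GR-null array, by 0.50, 0.63, 0.61, 1.13 and 0.57 log2 in the order named, each less than Fgf1.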

How the data were processed

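Per the submitters' processing notes, the authors made the deposited log2 values with RMA, which corrects background, makes the array distributions alike and combines the probes of a set into one value. Its version was not given in the sources used here. Of 45101 probe sets, 64 controls were left out. Among the 45037 tested, 34945 carried 1 gene symbol, 932 several and 9160 none listed, and 18032 of the 18194 genes were found in the RefSeq table.

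A linear model with genotype as its single term was fitted to all probe sets with limma 3.58.1 in R 4.3.3 (lmFit, eBayes, two-sided), read at the brightest probe set of each gene and adjusted by Benjamini-Hochberg over all genes, with a threshold of 0.05. The fit was tested on simulated data. Precision is limited by the number of arrays, and no detection calls were used.

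The family members and the gene lists were chosen with earlier results of these data known. Named were all members, and in each pathway list up to 4 genes past the threshold or the one with the smallest p. Dusp5, Dusp6, Etv5 and Spry1 were added after their values were seen. The genes near Fgf1 and those most like it were taken by fixed rules. Only the rule for the genes most like Fgf1 passed over clone-type symbols and sex-linked transcripts. Arhgap26 and Spry4 were named outside these rules, and neither was past the threshold at its brightest probe set. The alternatives are given in the closing section.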

Additional observations from a re-analysis of the deposited data

Results flagged for a closer look

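At the brightest Fgf1 probe set, wild-type 29 read 5.23 log2 while the other 3 wild-type arrays lay between 5.64 and 5.67, a gap that is large for a group of 4. At Spred2, GR-null 5 read 9.53 log2 while the other 3 GR-null arrays lay between 9.72 and 9.75. These were 2 of 46 groups examined, and chance alone gives about 5% of groups such a gap.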

How the results depend on the processing

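Under 17 alternatives the Fgf1 difference kept its sign. It was 1.19 log2 with the mean of its probe sets, 1.09 with the muscle covariate and 1.76 to 2.31 with any 1 array left out. Fgfr1 turned to 0.24 without _x_at and _s_at probe sets, because another probe set was then read. The 3 called members became 1 without those probe sets, 0 with the muscle covariate and 0 to 3 with 1 array left out. The 3 called pathway genes became 1 above the median level, because Ndst3 and Spred3 were too dim to be tested there, while Spred2 kept its call. They became 14 with array weights, 6 with the mean of probe sets, 0 with the muscle covariate and 0 to 9 with 1 array left out. The 0 called neighbours became 3 with array weights, 1 with the mean of probe sets and 0 to 1 with 1 array left out. Over all genes, 539 calls became 1944 with array weights, 884 with the mean of probe sets (59.4% higher, against 47.3%), 103 with the muscle covariate and 79 without GR-null 25 to 1640 without GR-null 17. The share of calls that were higher ranged from 24.1% to 47.0% with 1 array left out. Apart from these, the cause of a change was not tested. With the muscle covariate, Ndst3 (1.17 log2), Spred2 (0.46) and Spred3 (-0.52) lost their calls though their differences were no smaller than in the main fit. The difference of Fgfr2 (0.52) was also no smaller, and those of Fgf1 and Fgfr1 (-0.36) were. For the other 9 members, 141 of 149 alternative values moved by less than 1 SD. In sign, Fgf7 turned negative in 3, at -0.04 with array weights, -0.05 without wild-type 6 and -0.12 without GR-null 17, and Fgf5 in 1, at -0.18 with the muscle covariate. Among the members, the filter on dim probe sets left no value for Fgf2, Fgf5, Fgf10 and Fgf18. No paired analysis was possible because the labels do not give the litter of each embryo.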
